A study of Mus musculus with 2 samples.

Results

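Products that the uterine epithelium secretes or carries on its luminal face were followed across all cell classes of 2 mouse uterus libraries profiled by droplet single-cell RNA sequencing. The 9 genes were Ltf, Lcn2, Muc1, Muc4, Clca1, Prap1, Wfdc2, Car12 and Pglyrp1, of 32285 genes counted. They were chosen by symbol, with earlier results of these data known. The library labelled control was titled Prickle1 f/f, and the library labelled cKO was titled Prickle1 f/f MiC. Each was a pool of whole uteri from 3 female C57BL/6J mice aged 6 months, minced and digested with collagenase. The labels do not explain MiC, give wild-type as the genotype of both libraries and state no stage of the oestrous cycle. Pooling left 1 library per group, so there is no replicate error and no test between the groups was possible. Every interval below is a 95% exact interval that covers counting error only. Levels are unique molecular identifiers (UMIs) per 1000000 UMIs of the same cells, written CPM.

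The luminal and glandular epithelium of the uterus coats the lumen with mucins, antimicrobial proteins and ion-rich fluid. In the mouse uterus oestrogen, acting through its receptor Esr1, induces several of these products in the epithelium, and Ltf is among the best known of them. In droplet data such strongly expressed products also leak into the suspension, so that a few of their UMIs appear in droplets of every cell type.

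The libraries held 45035801 and 34261441 UMIs, and 3490 and 3586 cells with a median of 4953 and 4903 UMIs passed the filters (control first here and in each pair below). Prickle1, the gene named in both titles, had 96 UMIs (2.56 CPM, 2.07 to 3.12) and 265 UMIs (9.03 CPM, 7.97 to 10.2) over all cells, so the count was not the lower one under the label cKO. The libraries count transcript ends, the labels do not say which part of Prickle1 is removed or in which cells, and a tag outside a removed part checks nothing, so directions below rest on the labels alone. The libraries shared 6 of their cell barcodes. Epithelium-like cells, named from Epcam, keratins and claudins, numbered 1311 (37.6%, 36.0 to 39.2) and 110 (3.07%, 2.53 to 3.69), with median depths of 4372 and 4066 UMIs. In the library labelled cKO, 2 of the 110 cells had over 100000 UMIs each and held 32.0% of the epithelial UMIs, while 24 such cells held 16.1% in the library labelled control. For the members over the whole class, values summed over UMIs are therefore given with the share of cells behind them. Within clusters that share is given for some members only. Listed genes and markers are given as sums without a share of cells, so a few deep cells could carry them. Cells of a library are not replicates.

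In RefSeq on GRCm38.p6 the genes lie at chr9:111019292-111042766 (Ltf, ENSMUSG00000032496), chr2:32384637-32387739 (Lcn2, ENSMUSG00000026822), chr7:18884690-18890438 (Pglyrp1, ENSMUSG00000030413), chr3:89229056-89233381 (Muc1, ENSMUSG00000042784) and chr16:32735886-32782391 (Muc4, ENSMUSG00000079620). The others lie at chr3:145004537-145032776 (Clca1, ENSMUSG00000028255), chr7:140093396-140097203 (Prap1, ENSMUSG00000025467), chr2:164562715-164568510 (Wfdc2, ENSMUSG00000017723) and chr9:66712296-66766845 (Car12, ENSMUSG00000032373). Start regions are shown for the genes on which the comparison turns: Ltf, Lcn2 and Prap1, which were lower in the library labelled cKO, and Wfdc2, which was not. They run from 250 bases before to 50 bases after the annotated start, 5′ to 3′ on the gene's strand, in the same build. Capitals mark the oestrogen response half-site GGTCA on either strand (read TGACC on the other).
Ltf, chr9:111019042-111019341, plus strand: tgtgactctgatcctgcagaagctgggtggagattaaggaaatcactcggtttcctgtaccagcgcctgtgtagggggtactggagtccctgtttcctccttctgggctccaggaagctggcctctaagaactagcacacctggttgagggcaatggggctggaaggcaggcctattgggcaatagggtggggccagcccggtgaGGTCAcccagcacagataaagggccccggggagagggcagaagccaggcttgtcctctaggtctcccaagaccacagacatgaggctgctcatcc
Lcn2, chr2:32387690-32387989, minus strand: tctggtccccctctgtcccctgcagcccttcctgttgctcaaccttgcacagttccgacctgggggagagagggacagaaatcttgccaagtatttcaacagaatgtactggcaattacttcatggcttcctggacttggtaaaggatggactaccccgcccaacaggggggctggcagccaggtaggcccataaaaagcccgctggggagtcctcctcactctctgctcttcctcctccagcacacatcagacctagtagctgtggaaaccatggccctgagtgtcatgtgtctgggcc
Prap1, chr7:140093146-140093445, plus strand: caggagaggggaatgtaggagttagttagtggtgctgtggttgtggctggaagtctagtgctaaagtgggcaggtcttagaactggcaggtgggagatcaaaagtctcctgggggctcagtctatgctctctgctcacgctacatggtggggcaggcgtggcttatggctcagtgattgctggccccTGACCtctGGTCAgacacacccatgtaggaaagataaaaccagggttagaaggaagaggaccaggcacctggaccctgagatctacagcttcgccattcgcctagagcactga
Wfdc2, chr2:164562465-164562764, plus strand: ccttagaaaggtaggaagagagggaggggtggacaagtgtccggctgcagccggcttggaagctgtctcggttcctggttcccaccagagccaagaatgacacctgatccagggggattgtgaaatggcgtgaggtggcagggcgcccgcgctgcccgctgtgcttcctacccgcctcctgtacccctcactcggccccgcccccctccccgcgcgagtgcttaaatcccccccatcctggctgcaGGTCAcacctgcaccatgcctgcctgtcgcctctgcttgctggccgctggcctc
The half-site occurred in 3 of the 8 members with a window in the table, Ltf, Prap1 and Wfdc2, and in 40.5% of all 32851 windows of 300 bases. Ltf had 1 half-site, starting 45 bases before the annotated start, Wfdc2 had 1, 4 bases before it, and Prap1 had 2, 63 and 55 bases before it. The reference holds 2 windows for Wfdc2, and only the first of them was read. In Prap1 they face away from each other, TGACC first and GGTCA after 3 bases. The full palindrome, GGTCA first and TGACC after any 3 bases, was in none of the 8 windows and in 0.0700% of all windows. These are matches of letters within a short window and not binding sites.

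In the library labelled control the 9 genes were products of the epithelium. Epithelium-like cells held between 93.3% (Car12) and 99.3% (Lcn2) of each gene's UMIs there, although they were 37.6% of the cells. In the library labelled cKO they held 98.2% of the Ltf, 95.1% of the Wfdc2, 91.8% of the Muc4 and all 133 of the Clca1 UMIs. They held 78.9% of the Prap1, 78.3% of the Lcn2 and 63.4% of the Car12 UMIs. For Muc1 and Pglyrp1 the share was only 39.2% and 33.1%, so most of the UMIs of these genes in that library lay outside the epithelium. Summed over all cells, each of the 9 genes was lower in the library labelled cKO, from 5.89-fold for Wfdc2 to 169.6-fold for Lcn2, values that mix the smaller number of epithelial cells with the level per cell.

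**Figure D1:**
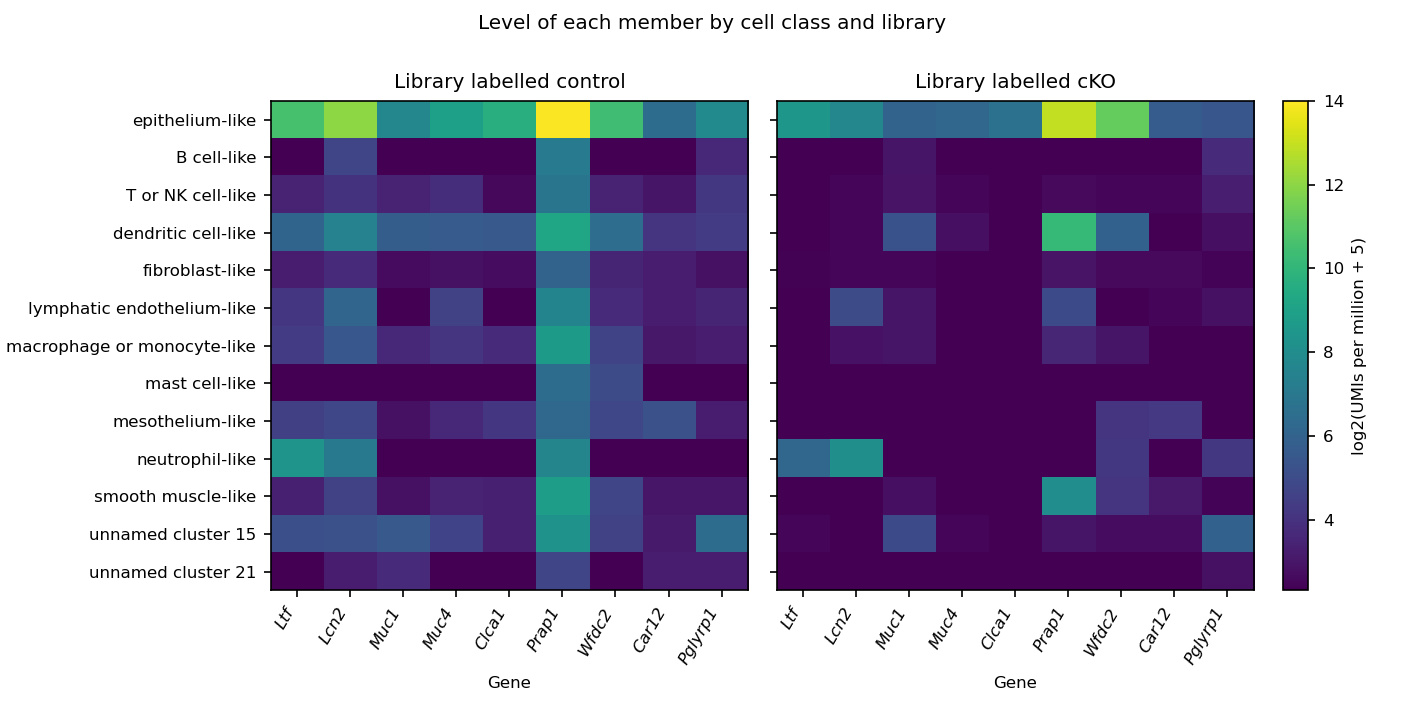
Colour gives log2 of the CPM level plus 5 for the 9 genes (columns) in each cell class (rows), in the library labelled control (left) and the library labelled cKO (right). The epithelium-like row is the brightest for each gene in the library labelled control, at 82.9 to 15774 CPM.

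Within the epithelium-like cells 7 of the 9 genes were at least 2-fold lower in the library labelled cKO on the log2(CPM + 5) scale, a fold that 7.22% of the 8680 genes with at least 10 CPM in either library also passed downward. None of the 9 was at least 2-fold higher, against 13.6% of those genes. The median log2 ratio of the 9 genes was -2.09, while that of all 8680 genes was 0.26. Lcn2, Clca1, Muc4, Pglyrp1, Ltf, Muc1 and Prap1 passed downward, in that order of ratio, Car12 was lower by less, and Wfdc2 was higher. With median-of-ratios size factors in place of class totals, which moved the median of all genes by -0.51, 8 members passed downward (Car12 added) against 16.3% of genes, none passed upward against 4.83%, and Wfdc2 stayed higher. The members together made up 2.45% and 1.11% of the epithelial UMIs, and Prap1 alone was 64.3% and 70.3% of those member UMIs. Most of the epithelium-like cells came from clusters 0, 2, 1 and 3 in the library labelled control (645, 226, 224 and 187 cells) and from clusters 0 and 1 in the library labelled cKO (69 and 39 cells), so the class values also compare different mixes. Of the class, 32 and 5 cells formed a sub-cluster led by genes of stroma and muscle (Dcn, Col1a1, Des), and 12 and 1 cells one led by genes of antigen-presenting cells (H2-Aa, Ccr7). Without both, 7 members were again at least 2-fold lower (7.28% of genes tested) and none higher (13.8%).

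**Figure D2:**
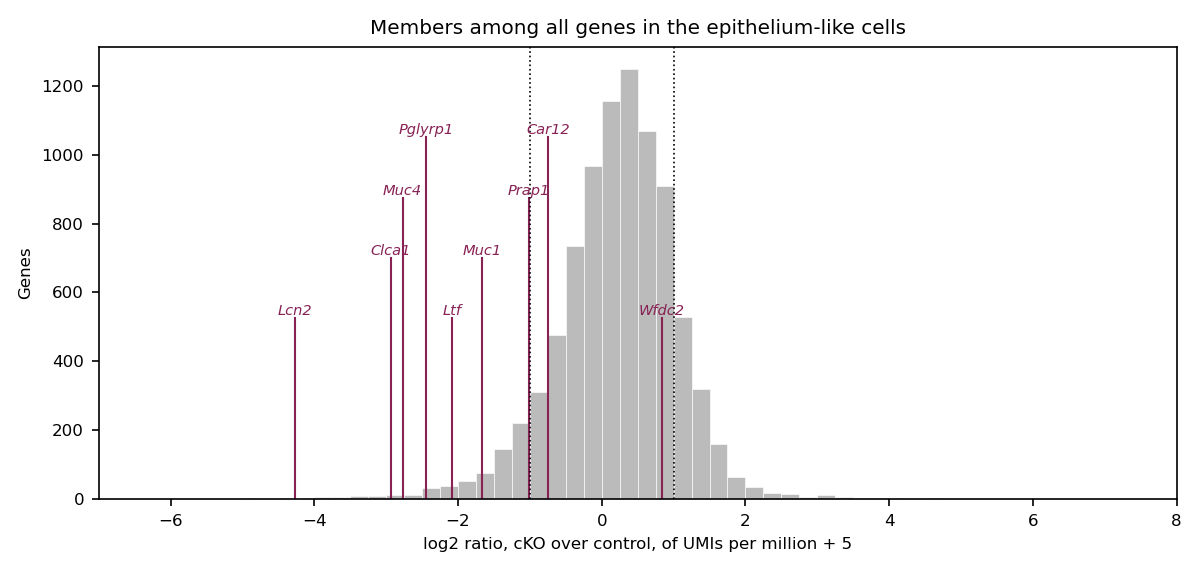
Grey bars count the 8680 genes by their log2 ratio in the epithelium-like cells (x axis, library labelled cKO over library labelled control, on CPM + 5), and lines mark the 9 members. Dotted lines mark the 2-fold limits, past which 7 members lie on the lower side and none on the higher side.

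Among the iron-binding defence proteins, Ltf encodes lactotransferrin, which binds free iron in mucosal fluid. It was counted 28889 times in the library labelled control (1529 CPM, 1511 to 1547) and 480 times in the library labelled cKO (356 CPM, 325 to 389), a level 4.30-fold lower (3.93 to 4.71). A Ltf UMI was found in 1037 of 1311 cells (79.1%) and in 20 of 110 cells (18.2%). Of the 480 UMIs, 427 lay in 5 cells, so Ltf in that library was carried by very few cells. Without the 5 cells with the most Ltf in each library the level was 1465 and 51.8 CPM. Such an omission takes 5 of 110 cells against 5 of 1311, picked by the gene's own count, and is no estimate of the difference. Lcn2 encodes lipocalin 2, which captures the siderophores with which bacteria collect iron. It was counted 77281 times (4090 CPM, 4061 to 4119) and 281 times (208 CPM, 185 to 234), 19.6-fold lower (17.5 to 22.2), and was the member with the lowest ratio. Its UMIs were in 86.4% and 29.1% of the cells, and 5 cells held 69.0% of those in the library labelled cKO.

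Pglyrp1 encodes a peptidoglycan recognition protein that binds bacterial cell walls. It was counted 4396 times (233 CPM, 226 to 240) and 52 times (38.5 CPM, 28.8 to 50.5), 6.04-fold lower (4.59 to 8.10), in 52.3% and 13.6% of the cells. Neutrophils store proteins of the same kind, including Ltf, Lcn2 and Pglyrp1, so the neutrophil markers were read in the epithelium-like cells. None of the 9 markers reached 10 CPM in either library, their summed level was 4.82 and 6.67 CPM, and 4 and 6 of them, Ngp, Camp, Mmp8 and Retnlg among both, were at 0.

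The mucus layer is represented by 3 genes. Muc1, a membrane-anchored mucin of the apical surface, was at 204 CPM (198 to 211, 3857 UMIs) and 60.8 CPM (48.3 to 75.4, 82 UMIs), 3.36-fold lower (2.70 to 4.23). Muc4, a larger membrane mucin that can bind the receptor Erbb2, was at 484 CPM (474 to 494, 9151 UMIs) and 66.7 CPM (53.6 to 82.0, 90 UMIs), 7.26-fold lower (5.90 to 9.04). Muc4 was the member spread most evenly over the few positive cells of the library labelled cKO, with 90 UMIs in 34 cells and at most 7 in a cell. Clca1 encodes a secreted protein of mucus-producing cells that modulates chloride conductance. It was at 789 CPM (776 to 801, 14900 UMIs) and 98.6 CPM (82.5 to 117, 133 UMIs), 7.999-fold lower (6.74 to 9.56). Of the 133 UMIs, 127 lay in 5 cells. Without the 5 cells with the most Clca1 in each library the level was 709.7 and 6.995 CPM, with the same limit as for Ltf.

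Prap1 encodes a proline-rich acidic protein secreted by the uterine and intestinal epithelium. It was counted 298058 times (15774 CPM, 15717 to 15831) and 10542 times (7814 CPM, 7665 to 7964), 2.02-fold lower (1.98 to 2.06), just past the 2-fold limit. A Prap1 UMI was in 95.2% and 40.0% of the epithelium-like cells, and in the library labelled cKO 5 cells held 7284 of the 10542 UMIs. The sum thus hid a difference in how the transcript was spread: nearly every cell in the library labelled control had some, and in the library labelled cKO 30 cells had at least 10 UMIs while 66 had none. Without the epithelium-like cells above 100000 UMIs in both libraries, the log2 ratio was -0.57 instead of -1.01, and Prap1 was no longer past the limit. Without the 5 cells with the most Prap1 in each library, its level was 14848 and 2503 CPM, a larger difference than with them. Such an omission picks cells by the gene's own count and takes 5 of 110 cells against 5 of 1311, so it describes how the UMIs were spread and is no estimate of the difference.

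Wfdc2 encodes a small secreted protein of the whey acidic protein family, made by many mucosal epithelia. It was counted 25632 times (1357 CPM, 1340 to 1373) and 3277 times (2429 CPM, 2346 to 2514), 1.79-fold higher in the library labelled cKO (1.73 to 1.86). A Wfdc2 UMI was in 76.5% (74.1 to 78.8) and 75.5% (66.3 to 83.2) of the cells, intervals that overlap. Of the 3277 UMIs, 2399 lay in 5 cells, and without the cells above 100000 UMIs the log2 ratio was 0.22 instead of 0.84. Without the 5 highest cells of each library the level was 1263 and 1089 CPM, so Wfdc2 was then the lower one in the library labelled cKO. Car12, a membrane carbonic anhydrase that turns over carbon dioxide and bicarbonate at the cell surface, was at 82.9 CPM (78.8 to 87.1, 1566 UMIs) and 47.4 CPM (36.5 to 60.6, 64 UMIs), 1.75-fold lower (1.36 to 2.28). Its log2 ratio was -0.74 and fell short of the limit, and it was -0.12 without the cells above 100000 UMIs. Without the 5 cells highest in Car12 in each library its level was 73.5 and 25.1 CPM, so the omissions moved the ratio in opposite directions.

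To set both libraries at equal depth, every cell was thinned to 1000 UMIs. The share of epithelium-like cells with a UMI was then 52.6% (49.8 to 55.3) and 10.0% (5.10 to 17.2) for Ltf, and 67.1% and 10.0% for Lcn2. It was 44.8% and 7.27% for Muc4, 25.8% and 3.64% for Clca1, 17.7% and 5.46% for Muc1, and 17.3% and 2.73% for Pglyrp1. For Prap1 it was 87.8% (85.9 to 89.5) and 31.8% (23.3 to 41.4). For Wfdc2 it was 47.9% (45.2 to 50.6) and 50.9% (41.2 to 60.6), and for Car12 it was 7.93% (6.53 to 9.53) and 6.36% (2.60 to 12.7), intervals that overlap. T or NK cell-like cells were taken as the background: at most 0.971% for each member but Prap1 in the library labelled control, and at most 0.444% for any member in the library labelled cKO. For Prap1 that background was 10.7% (6.82 to 15.7, and 29.1% before thinning) and 0 of 450 cells, at median depths of 4191 and 3559 UMIs. For Muc1 and Pglyrp1 it may not be leaked RNA alone. Before thinning, those cells labelled cKO held 5 and 9 UMIs of them, where leaked RNA estimated with empty droplets predicts 1.23 of each. In empty droplets Prap1 was at 11317 CPM in the library labelled control and at 248.5 CPM in the library labelled cKO.

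**Figure D3:**
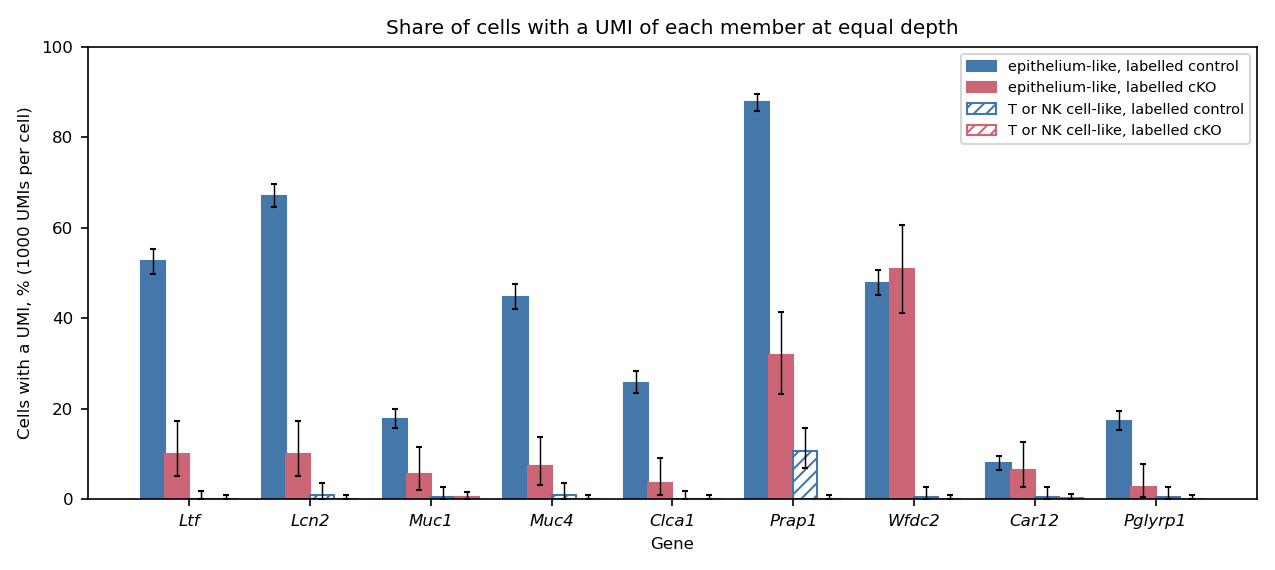
Bars give the share of cells with at least 1 UMI of each gene after thinning every cell to 1000 UMIs (y axis, percent, from 0), in epithelium-like cells (filled) and T or NK cell-like cells (hatched) of the 2 libraries, with 95% exact binomial intervals. The filled bars of the library labelled cKO are lower for 7 genes by more than the intervals and overlap those of the library labelled control for Wfdc2 and Car12.

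The number of members found in the same cell differed in the same direction. At 1000 UMIs per cell the median epithelium-like cell had 4 of the 9 members under the label control and 1 under the label cKO. No member was found in 18 of 1311 cells (1.37%) and in 32 of 110 cells (29.1%). Leaving out Prap1 and its high background, at least 3 of the other 8 members were found in 57.4% (54.7 to 60.1) and 3.64% (1.00 to 9.05) of the cells. In T or NK cell-like cells no cell had 3 or more of those 8 in either library.

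**Figure D4:**
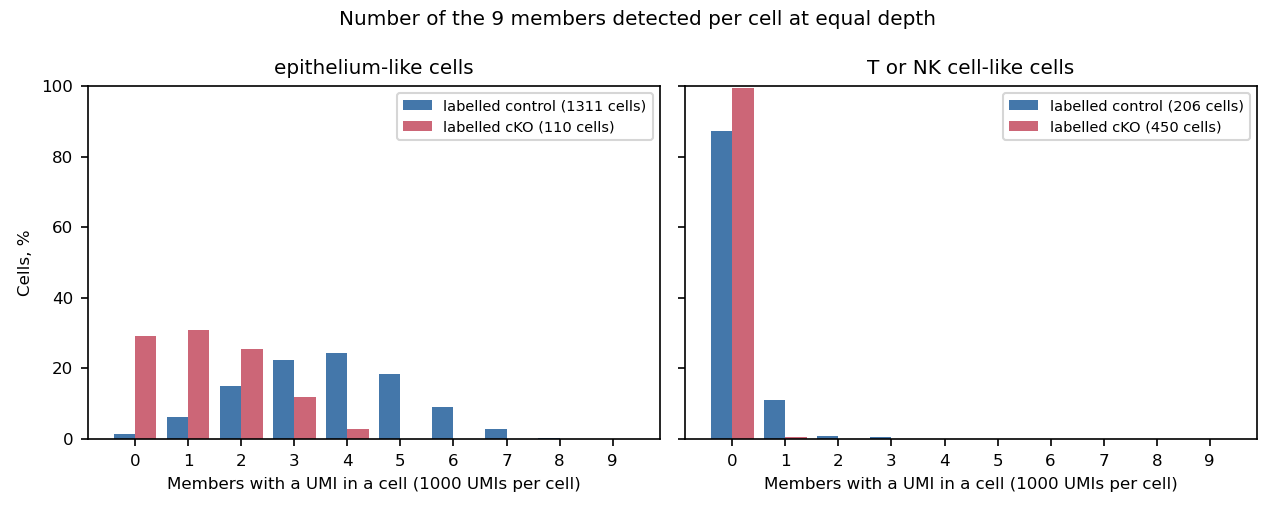
Bars give the percent of cells (y axis, from 0) in which 0 to 9 of the members had a UMI (x axis) after thinning to 1000 UMIs, for epithelium-like cells (left) and T or NK cell-like cells (right). Epithelium-like cells centre on 4 members in the library labelled control and on 0 to 2 in the library labelled cKO.

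Among the cells of the library labelled control the 9 genes did not vary as a block. Over 12 sub-clusters of at least 20 epithelium-like cells, Clca1 ranged from 97.6 to 2320 CPM, Car12 from 17.9 to 227 CPM, Muc4 from 94.9 to 1023 CPM and Prap1 from 4920 to 47497 CPM. Muc1 varied least, from 100.1 to 354 CPM. Its lowest value came from sub-cluster 5, the one led by genes of stroma and muscle, and over the other 11 it ranged from 132 to 354 CPM. Sub-cluster 1 had the highest level of Ltf, Lcn2, Clca1, Wfdc2, Car12 and Pglyrp1, while Muc1 and Muc4 were highest in sub-cluster 11, which had the lowest Ltf and Lcn2. Between the large clusters 0 and 1, Muc4 was at 797 and 308 CPM and Clca1 at 263 and 1906 CPM, while Muc1, at 188 and 252 CPM, was higher in cluster 1 as Clca1 was. Over single cells thinned to 1000 UMIs, Pearson's r between members was weak, from -0.14 to 0.35, with Muc4 negative to most others (median r -0.10 over 8 pairs) and Lcn2 and Wfdc2 the highest pair. These correlations describe sparse counts of cells that share 1 library.

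Within cluster 0, the largest of both libraries, 6 of the 9 genes were at least 2-fold lower in the library labelled cKO (8.79% of all genes tested there) and none was at least 2-fold higher (15.7%). Clca1 was counted 814 and 3 times (28.4-fold lower, 9.67 to 138), and Pglyrp1 386 and 3 times (13.5-fold lower, 4.57 to 65.5). Ltf was at 831 and 64.9 CPM. Lcn2 was at 1469 and 223 CPM, Muc4 at 797 and 173 CPM, and Muc1 at 188 and 49.5 CPM. Prap1 went the other way there, at 11400 and 14904 CPM, although its UMIs were in 95.7% and 37.7% of the cells. Car12 was at 103 and 92.8 CPM, with an interval of the ratio that includes 1, and Wfdc2 at 674 and 1172 CPM.

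Within cluster 1, with 224 and 39 cells, 8 genes were at least 2-fold lower (6.49% of genes tested) and none at least 2-fold higher (9.27%). The exception was Wfdc2, at 2428 and 2876 CPM, but 2399 of its 2896 UMIs in the library labelled cKO lay in 5 cells. Without the 5 cells highest in Wfdc2 in each library the level was 2257 and 1071 CPM, with the same limit as for Ltf. Lcn2 was at 5116 and 208 CPM, 24.7-fold lower (21.5 to 28.4), and Clca1 at 1906 and 129 CPM. In the library labelled cKO 5 cells held 193 of the 209 Lcn2 UMIs, and 5 cells held 127 of the 130 Clca1 UMIs. The 39 cells held 74.6% of the epithelial UMIs of the library labelled cKO. At 1000 UMIs per cell, Prap1 was in 77.2% and 30.8% of the cluster's cells and Wfdc2 in 78.1% and 56.4%.

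Clustered again on their own, the epithelium-like cells gave 2 sub-clusters with at least 20 cells in both libraries. In sub-cluster 7, with 99 and 25 cells, 3 members were at least 2-fold lower (12% of genes tested) and 1, Ltf, was at least 2-fold higher (32.6%). Ltf was counted 363 and 422 times there (1128 and 2584 CPM), 2.29-fold higher in the library labelled cKO (1.99 to 2.64). That higher level came from few cells: 412 of the 422 UMIs lay in 5 cells, while Ltf was found in 75.8% and 32.0% of the cells. Lcn2 did not follow Ltf in this sub-cluster, at 2255 and 104 CPM, and Prap1 was at 47497 and 7116 CPM. The 25 cells of the library labelled cKO also differed from the 99 in their keratins, with Krt5 at 0 and 680 CPM, Krt14 at 3.11 and 606 CPM and Krt13 at 0 and 1072 CPM. Krt6a, at 71.5 and 55.1 CPM, and the squamous-type marker Sprr2d, at 354 and 214 CPM, were not higher in those 25 cells.

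In sub-cluster 13, with 41 and 45 cells, 6 members were at least 2-fold lower (19.1%) and none at least 2-fold higher (28.4%). Ltf was at 2055 and 31.6 CPM, Lcn2 at 5470 and 179 CPM, and Pglyrp1 at 495 and 31.6 CPM. Clca1 was counted 119 times in the library labelled control (1254 CPM) and 0 times in the library labelled cKO, at least 198.6-fold lower when set against a floor of 3 counts over the group. Prap1 was at 14988 and 17907 CPM, in 48.8% and 44.4% of the cells, and Wfdc2 at 2003 and 1278 CPM. Sub-cluster 13 held most of the UMIs of these gland genes in the library labelled cKO, with Cxcl15 counted 2 and 46 times, Aldh1a1 0 and 34 times and Foxa2 0 and 21 times. It also held 35.2% of that library's epithelial UMIs, against 12.1% in sub-cluster 7 and 41.9% in only 4 cells of sub-cluster 9. Those 4 cells held 2162 of the 3277 Wfdc2 UMIs and 157 of the 281 Lcn2 UMIs of that library's epithelium-like cells. Per UMI, Foxa2 was at 79.6 CPM in the cells labelled cKO of sub-cluster 7 and at 44.2 CPM in those of sub-cluster 13. Cxcl15 was at 36.8 and 96.8 CPM and Aldh1a1 at 0 and 71.6 CPM in the same order. Sub-cluster 13 also held 313 of the 347 UMIs of the squamous-type marker Krt6a in the library labelled cKO (21.1 and 659 CPM in the sub-cluster). The luminal marker Calb1 was at 306 and 2.10 CPM there, so the markers of sub-cluster 13 belong to no single epithelial type. The interval of the Muc4 ratio there (94.9 and 37.9 CPM) includes 1.

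Markers of epithelial types also differed between the libraries. Of the 8680 genes tested over all epithelium-like cells, 7.22% were at least 2-fold lower and 13.6% at least 2-fold higher. Over all epithelium-like cells, 4 of 7 gland markers reached 10 CPM and all 4 were at least 2-fold higher in the library labelled cKO. They were Foxa2 (25 and 36 UMIs), Cxcl15 (2 and 55), Aldh1a1 (39 and 45) and Sult1d1 (448 and 91). Foxa2, Cxcl15 and Aldh1a1 were at 1.32, 0.106 and 2.06 CPM in the library labelled control. They passed the filter only through the library labelled cKO, so they could be counted only as higher. Their summed level over the list was 27.3 and 171 CPM. Of 6 squamous-type markers 5 reached 10 CPM, with Krt5, Krt14, Krt6a and Dsg3 at least 2-fold higher and Sprr2d lower. Krt5, Krt14 and Dsg3 also passed the filter only through the library labelled cKO. The summed level of the squamous-type markers was 309.5 and 505.5 CPM. Of 7 genes listed as luminal markers all reached 10 CPM, with Krt13 at least 2-fold higher and Lpar3 lower, and a summed level of 636 and 943 CPM. Of the 203 Krt13 UMIs in the library labelled cKO, 175 lay in sub-cluster 7. The same cells held 111 Krt5 and 99 Krt14 UMIs, so Krt13 is no clear luminal marker here. The part of these markers in the members' ratios was not tested.

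**Figure D5:**
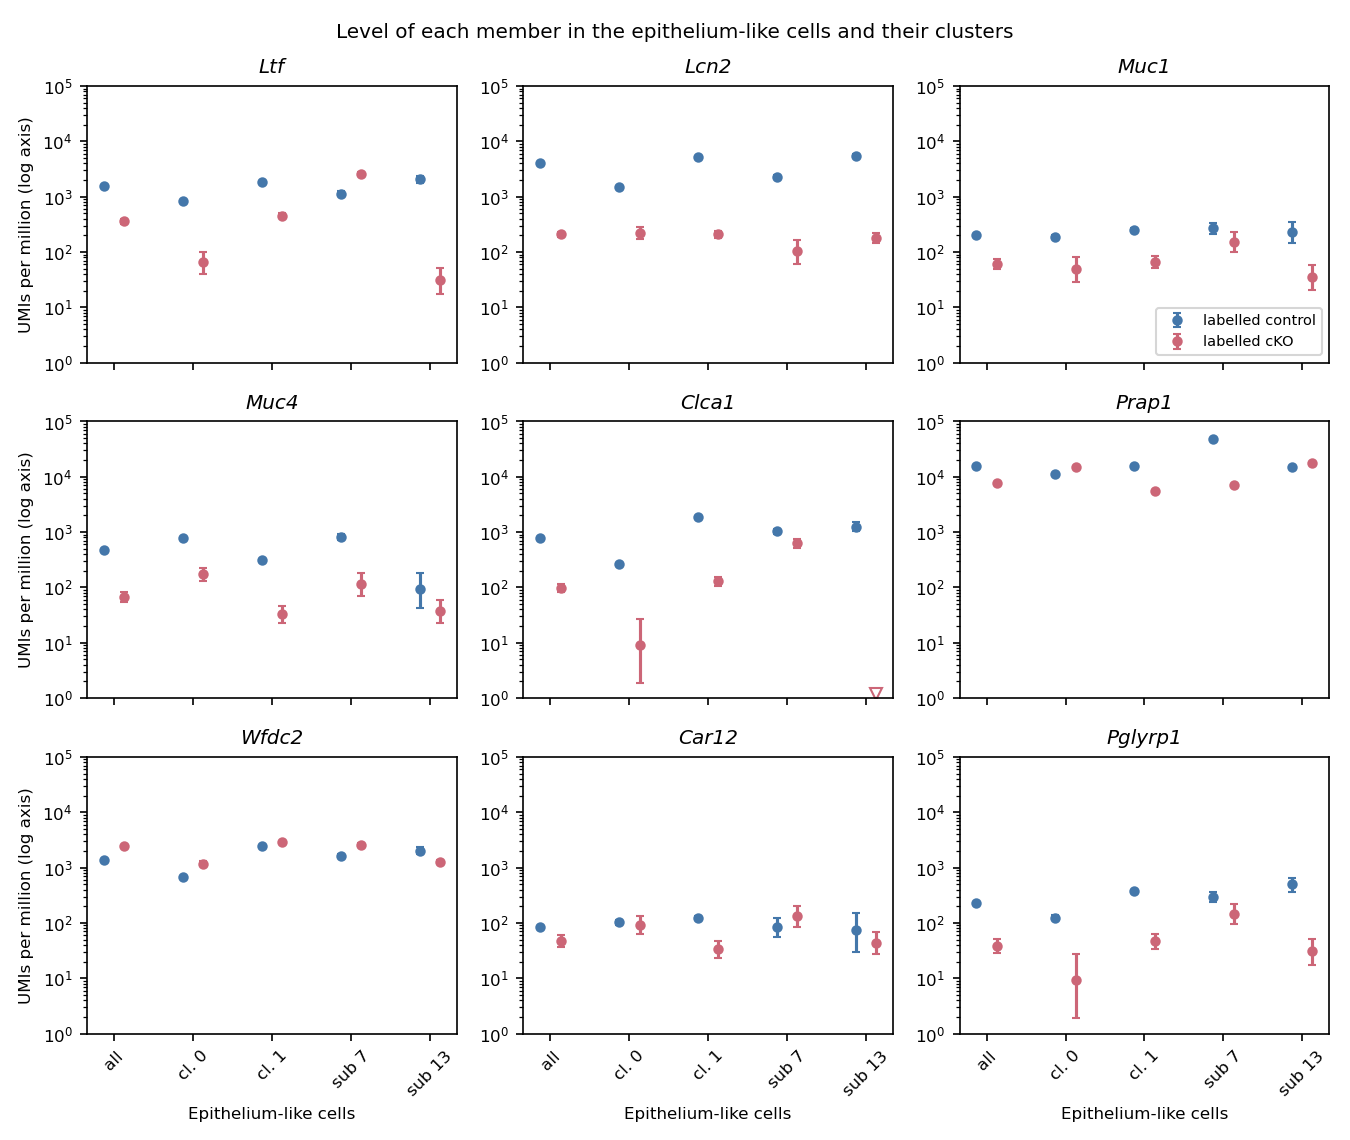
Points give the CPM level of each member (y axis, log scale) in all epithelium-like cells, in clusters 0 and 1 and in sub-clusters 7 and 13, for the library labelled control (blue) and the library labelled cKO (red), with 95% exact Poisson intervals, and an open triangle marks a count of 0. Lcn2 is lower in the library labelled cKO in each of the 5 sets, while Ltf is higher in sub-cluster 7 and Prap1 in cluster 0 and sub-cluster 13.

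Other oestrogen-induced genes of the uterus were read from a fixed list of 17 genes without the members. Of the 13 that reached 10 CPM, 5 were at least 2-fold lower (7.22% of all genes tested) and 1 at least 2-fold higher (13.6%). The median log2 ratio of the 13 was -0.68 against 0.26 over all genes. The lowest were complement C3, at 2056 and 302 CPM, and Sprr2a3, counted 762 and 3 times (40.3 and 2.22 CPM). The highest were the progesterone receptor Pgr, at 26.4 and 86.7 CPM, and the kallikrein Klk1, at 62.9 and 129 CPM. The list names genes of the uterus and not of its epithelium alone. Whether oestrogen raises each of them in epithelial cells was not tested. A higher Pgr is therefore not read as a stronger oestrogen response. The Sprr2 genes are near-identical copies whose reads can be split between them, so Sprr2a3 alone is uncertain. Sprr2f, the most counted of them, was at 4934 and 2293 CPM. Esr1 itself was at 96.2 CPM (1818 UMIs) and 133 CPM (179 UMIs).

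Of 7 progesterone-induced genes, 3 reached 10 CPM and none of them passed the fold, against 7.22% of all genes tested downward and 13.6% upward. Areg, an epidermal growth factor family ligand, was at 24.6 and 29.7 CPM, the transcription factor Gata2 at 64.7 and 97.8 CPM and the lipoxygenase Alox15 at 63.2 and 108 CPM. Ihh was counted 3 and 8 times (0.159 and 5.93 CPM) and Cyp26a1 6 and 4 times (0.318 and 2.97 CPM). Calca was counted 6 and 2 times (0.318 and 1.48 CPM) and Acod1 34 and 0 times (1.80 and 0 CPM). These genes were under 10 CPM in both libraries, so the fold was not read for them.

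The other secretory and mucosal defence products went both ways. Of 23 genes 12 reached 10 CPM, with 5 at least 2-fold lower (7.22% of all genes tested) and 4 at least 2-fold higher (13.6%). Their median log2 ratio was -0.46. The membrane mucins Muc13 and Muc20 were lowest, counted 330 and 1 times and 468 and 5 times. Cxcl15, a chemokine of uterine glands, and the gel-forming mucin Muc5b were highest, counted 2 and 55 times and 2 and 46 times (0.106 and 40.8 CPM, and 0.106 and 34.1 CPM). Cxcl15 and Muc5b passed the filter only through the library labelled cKO, and Muc13 and Muc20 only through the library labelled control. Their directions therefore follow from the filter.

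Among 14 receptors and partners of the members, 8 reached 10 CPM, and their median was -0.31. Of these, 2 were lower (7.22% of all genes tested) and 1 higher (13.6%) by at least 2-fold, the higher count being near its share. The bicarbonate cotransporter Slc4a4, at 135 and 17.8 CPM, and Egfr, at 99.6 and 40.0 CPM, were lowest. The chloride channel Ano1, whose surface level Clca1 is known to affect, was at 1.75 and 22.2 CPM. It passed the filter only through the library labelled cKO. Among 11 inflammatory regulators, 8 reached 10 CPM, with 2 lower and none higher, against the same shares of all genes, and a median of -0.82. Il1b was counted 256 and 0 times, but 239 of the 256 UMIs lay in the 12 cells led by genes of antigen-presenting cells, and 17 and 0 remained without them. Rela, an NF-kB subunit and the other gene counted as lower, was at 203 and 86.7 CPM. Cebpb and Cebpd, transcription factors of acute inflammation, were highest, at 557 and 935 CPM and at 143 and 186 CPM. Among 15 paralogues of the members, 5 reached 10 CPM, with 2 lower and 2 higher, against the same shares of all genes. The carbonic anhydrases Car9 and Car2 were lower, counted 437 and 5 times and at 295 and 143 CPM. Wfdc15b and Wfdc1 were higher, counted 17 and 66 times and 13 and 14 times. Wfdc15b and Wfdc1 passed the filter only through the library labelled cKO, and Car9 only through the library labelled control. The 8 general epithelium markers, such as Krt8 at 4306 and 5592 CPM and Epcam at 834 and 698 CPM, had no member past the fold in either direction and a median of -0.20.

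Outside the epithelium most classes held the members at low levels. In T or NK cell-like, fibroblast-like and smooth muscle-like cells of the library labelled control Prap1 was at 61.0 to 447 CPM and each other member at 22.2 CPM or less. In the library labelled cKO, where empty droplets held 386 member UMIs against 24473, the same classes had at most 11.9 CPM of any member but Prap1. A few cells held most of the Prap1 UMIs found outside the epithelium in the library labelled cKO. Of 2179 Prap1 UMIs in dendritic cell-like cells of the library labelled cKO, 1042 and 1029 lay in 2 cells, which also held 58 and 34 Wfdc2 UMIs and 6 and 8 of Krt8 but 0 of Ltf and Lcn2. Of 537 Prap1 UMIs in smooth muscle-like cells of that library, 498 lay in 1 cell with 24 Wfdc2 UMIs. In dendritic cell-like cells of the library labelled control, 5 cells held 204 of 241 Lcn2 UMIs and 68 of 85 Ltf UMIs. Doublets could not be removed here, and their part in these counts was not tested.

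Muc1 was also found in many dendritic cell-like cells. These held it at 49.2 CPM (38.1 to 62.5, in 33 of 125 cells) and 33.4 CPM (25.8 to 42.6, in 39 of 210 cells), 1.47-fold lower in the library labelled cKO (1.03 to 2.10). Among the dendritic cell-like cells without a UMI of Krt8, Krt18 or Epcam, 22.5% (14.6 to 32.0) and 18.7% (13.4 to 25.1) had a Muc1 UMI, against 2.60% and 0.6803% of such T or NK cell-like cells. In unnamed cluster 15, led by AW112010, Il2rb and Gzma, Muc1 was at 42.4 CPM (29.2 to 59.5) and 25.7 CPM (17.9 to 35.8), and the interval of that ratio includes 1. At 1000 UMIs per cell the dendritic cell-like shares were 3.20% and 1.43%.

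Pglyrp1 was also found in unnamed cluster 15, at 83.5 CPM (64.4 to 106, in 35 of 139 cells) and 56.6 CPM (44.7 to 70.7, in 56 of 297 cells), 1.47-fold lower (1.04 to 2.08). The 77 UMIs there exceeded the 52 in all epithelium-like cells of the library labelled cKO. Without cells holding a UMI of Krt8, Krt18 or Epcam, 25.4% (17.8 to 34.5) and 18.4% (14.1 to 23.5) of the cluster's cells had a Pglyrp1 UMI. Both shares lie above the 4.69% and 1.36% of such T or NK cell-like cells.

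Lcn2 had 38 UMIs in 18 of 103 lymphatic endothelium-like cells of the library labelled cKO (27.1 CPM, 19.1 to 37.1), and 30 UMIs in 9 of 31 such cells of the library labelled control (65.5 CPM, 44.2 to 93.5). In T or NK cell-like cells it was at 11.5 and 0.538 CPM. Neutrophil-like cells were few, 6 and 31. They held 2 and 21 Lcn2 UMIs and 5 and 5 Ltf UMIs (321 CPM, 104 to 749, and 66.8 CPM, 21.7 to 156, for Ltf). Car12 was in mesothelium-like cells at 32.0 CPM (21.6 to 45.6, in 18 of 83 cells) and 14.3 CPM (6.17 to 28.1, in 7 of 31 cells), its highest level outside the epithelium in both libraries.

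The genes most like each member were taken over 44 units of 1 cluster in 1 library with at least 20 cells, by Pearson's r of log2(CPM + 5) among 14543 genes. Ltf and Lcn2 were each other's closest gene (r 0.965), followed by Cldn3 and BC048679 for Ltf and by Cldn4 and Pigr for Lcn2. Clca1 was closest to Fcgbp, a mucus protein (0.978), Tspan1 and Ckmt1, and Car12 to the chloride channel Cftr (0.937), Tmem79 and AI661453. Muc4 was closest to Slc26a9 (0.965), Gm14137 and Trpv6, and Muc1 to Macc1 (0.934), Fut9 and Trpv6. Prap1 was closest to Wfdc2 (0.907), 2200002D01Rik and Serpina1e, Wfdc2 to Serpina1e (0.958), 2200002D01Rik and Fxyd3, and Pglyrp1 to Noxa1 (0.882), Ltf and Lamb3. These values are a description, since the units share 2 libraries and mix epithelial with other clusters.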

How the data were processed

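Uterine cells were profiled in 2 libraries with the 10x Genomics 3′ v3 chemistry, per the labels' protocols. The deposited matrices hold UMI counts per gene and barcode. They were made with Cell Ranger 4 per the file headers and with Cell Ranger 6.1.1 per the submitters' processing notes, which name the build mm10. The annotation release is not given in the sources used here. A barcode was kept as a cell from 1000 UMIs and 500 genes upward, unless over 20% of its UMIs were mitochondrial. Scrublet called 4 of 7076 cells (0.0565%), which is no working result, so doublets remain.

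Cells were clustered with scanpy 1.11.5 (2000 variable genes without the members and listed genes, 30 principal components, 15 neighbours, Leiden resolution 1) and clusters were named from at least 3 detected markers. UMIs were summed per class and library. Log2 ratios use CPM + 5, a gene was tested with at least 10 CPM in either library, and a 2-fold limit stands in for a test. A gene that passed this filter through 1 library alone could be counted only as higher in that library. Intervals are exact Poisson, Clopper-Pearson binomial or conditional 95% intervals. Shares of cells were also computed after thinning each cell to 1000 UMIs. The calculation was tested on simulated data. Python 3.11.15, numpy 2.4.6, scipy 1.17.1 and pandas 2.3.3 were used.

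The members, the gene lists and the markers were chosen with earlier results of these data known. The members are all named. From lists of 7 or fewer genes all are named, otherwise the 2 highest and 2 lowest ratios, with Sprr2f and Esr1 added after their values were seen, and 3 most similar genes are named per member. Sub-clusters, single clusters, the sum without Prap1, the rule that leaves possible doublet clusters unnamed and the omission of cells above 100000 UMIs or of sub-clusters led by Dcn or H2-Aa were added after seeing the data.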

Additional observations from a re-analysis of the deposited data

Results flagged for a closer look

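Between the 2 epithelial sub-clusters with at least 20 cells in each library, 4 members had log2 ratios of opposite sign. For 3 of them the counting interval excluded 0 in each sub-cluster, on opposite sides. For Ltf the ratio was 1.19 in sub-cluster 7 and -5.82 in sub-cluster 13, a gap of 7.01. For Prap1 it was -2.74 and 0.26, a gap of 2.99, and for Wfdc2 it was 0.64 and -0.65, a gap of 1.28. For Car12 it was 0.65 and -0.68, with intervals that include 0 in both. With 1 library per group the difference was not tested. In the library labelled cKO, 5 cells held 412 of the 422 Ltf UMIs of sub-cluster 7 and 6908 of the 8506 Prap1 UMIs of sub-cluster 13.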

How the results depend on the processing

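Over the 12 alternatives planned for each member, none of the 9 log2 ratios changed sign. Ltf, Lcn2, Muc1, Muc4, Clca1 and Pglyrp1 were past the 2-fold limit in all 12, Prap1 in 9 (-1.56 to -0.47) and Car12 in 2 (-1.74 to -0.10), while Wfdc2 was past it in none (0.24 to 0.98). The count of members past the limit, 7, was 6 to 8 under each of these and with cells above 100000 UMIs left out, 7 without the sub-clusters led by genes of other cell types, and 3 lower with 1 higher in sub-cluster 7 alone. Over the 12 alternatives, 5.23% to 16.3% of all genes tested were past it downward. That share was 6.74% and 7.28% under the 2 omissions. In sub-cluster 7 alone 12.0% of genes were lower and 32.6% higher. The log2 ratio of the summed members, -1.14, was -1.69 with median-of-ratios size factors, -1.18 with at most 10% mitochondrial UMIs, -1.28 with a gate on markers per cell, -1.59 without clusters over 90% from 1 library, -0.76 as the mean within clusters, -1.05 with free RNA subtracted and -0.65 at 1000 UMIs per cell. Without Prap1 it was -1.41, and under the first 6 of these, in the same order, -1.95, -1.35, -1.60, -1.68, -1.50 and -1.36. Leaving out clusters over 90% from 1 library kept cluster 1 alone (224 and 39 cells), so it repeats the values of cluster 1 below. That rule left out cluster 0, at 90.3% from the library labelled control, with its 69 cells labelled cKO. Of the alternatives added after seeing the data, leaving out cells above 100000 UMIs gave -0.86 (-1.70 without Prap1), cluster 0 gave 0.075 (-1.31), cluster 1 gave -1.59 (-1.68), sub-cluster 7 gave -2.02 (-0.22) and sub-cluster 13 gave -0.45 (-2.83). Signs turned for Ltf (1.19) and Car12 (0.65) in sub-cluster 7, for Prap1 in cluster 0 (0.39) and sub-cluster 13 (0.26), and for Wfdc2 in sub-cluster 13 (-0.65); the cause was not tested. The free RNA estimate, 10.0% and 10.5% of UMIs, exceeds what the members show, since T or NK cell-like cells of the library labelled control held 118 Prap1 UMIs where it predicts 1189. No paired analysis was possible because each group has 1 library and the labels give no replicate numbers, and for the same reason no library could be left out. With 110 epithelium-like cells in the library labelled cKO, depth limits Pglyrp1 (52 UMIs), Car12 (64), Muc1 (82) and Muc4 (90) most.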
